A study of Mus musculus with 10 samples.

Results

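The histone genes of the array were examined in connective tissue taken from beneath the tracheal epithelium of mice that had breathed chlorine. Members were all gene symbols of the H1f, H2ac, H2bc, H3c and H4c series in the array's probe annotation, grouped by the histone they encode, which gave 66 genes, 9 for H1, 17 for H2A, 16 for H2B, 12 for H3 and 12 for H4. A probe set that named a single gene was present for 29 of them, of 22180 genes in all, and only probe sets shared with other histone genes were present for the other 37, the entire H3 series included. Of the 66 genes, 60 were counted in the replication-dependent group, H2bc21 among them. The other 6, all measured, are H1f6, H2ac1 and H2bc1, which are known as testis forms, H1f7, a spermatid form, H1f8, an oocyte form, and H1f10, a replacement form.

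All 10 animals were 9-week-old male FVB/NJ mice. Of these, 5 had spent 1 hr in 235 ppm of chlorine, delivered to the whole body, and were killed 4 days later, and 5 were left untreated. Subepithelial mesenchyme was cut out of stained frozen tracheal sections by laser capture, the pieces of 1 mouse were pooled, and each mouse had its own array. Precision is limited by this number of arrays. The comparison asks which transcripts differed in this tissue after chlorine.

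Each new nucleosome needs a core of H2A, H2B, H3 and H4 and usually a linker histone H1, and a cell that copies its DNA must make these proteins in step with it. The genes that supply them lie in clusters, carry no introns and are transcribed mainly in S phase. Their mRNAs end in a stem-loop that is bound by Slbp in place of a poly(A) tail, and they are degraded when DNA synthesis stops. In a resting airway wall few cells divide, and after epithelial injury basal cells, fibroblasts and other cells enter the cell cycle. Paralogs of 1 core histone type code for nearly or fully identical proteins, so that an array can often read them only as a group.

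Transcripts of 2 of 8 linker histone genes, 4 of 6 H2A genes and 2 of 8 H2B genes were higher 4 days after chlorine, and none of 7 H4 genes passed the test. Of the 29 genes with a probe set of their own, 8 rose, 1 fell and 20 did not pass at an adjusted p under 0.05 (limma, Benjamini-Hochberg over all genes). The 8 that rose make up 27.6% of the 29, against 5.85% of all genes tested, and the 1 that fell, H1f8, compares with 4.97% of all genes. All 8 were among the 23 replication-dependent genes, whose median log2 difference was 0.54, against -0.003 over all genes. A difference above 0 was seen for 20 of those 23 (87%), against 49.4% of all genes, and the groups did not overlap, with every exposed mouse above every unexposed mouse, for 7 of them, against 5.89% of all genes. Rises that passed and were at least 2-fold were seen for 6 of the 29, against 1.85% of all genes. In dissected tissue, more cells holding a transcript and more transcript per cell cannot be told apart. With each mouse left out in turn, between 6 and 10 histone genes were called higher. H2ac21 was no longer called when exposed mice 2 or 5, or any unexposed mouse other than mouse 2, were left out (adjusted p over all 10 fits 0.0141 to 0.0748). H2bc3 was no longer called when exposed mouse 5 or any of unexposed mice 2, 3 and 4 were left out (0.00756 to 0.0609). The other 6 rises passed in all 10 such fits.

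**Figure D1:**
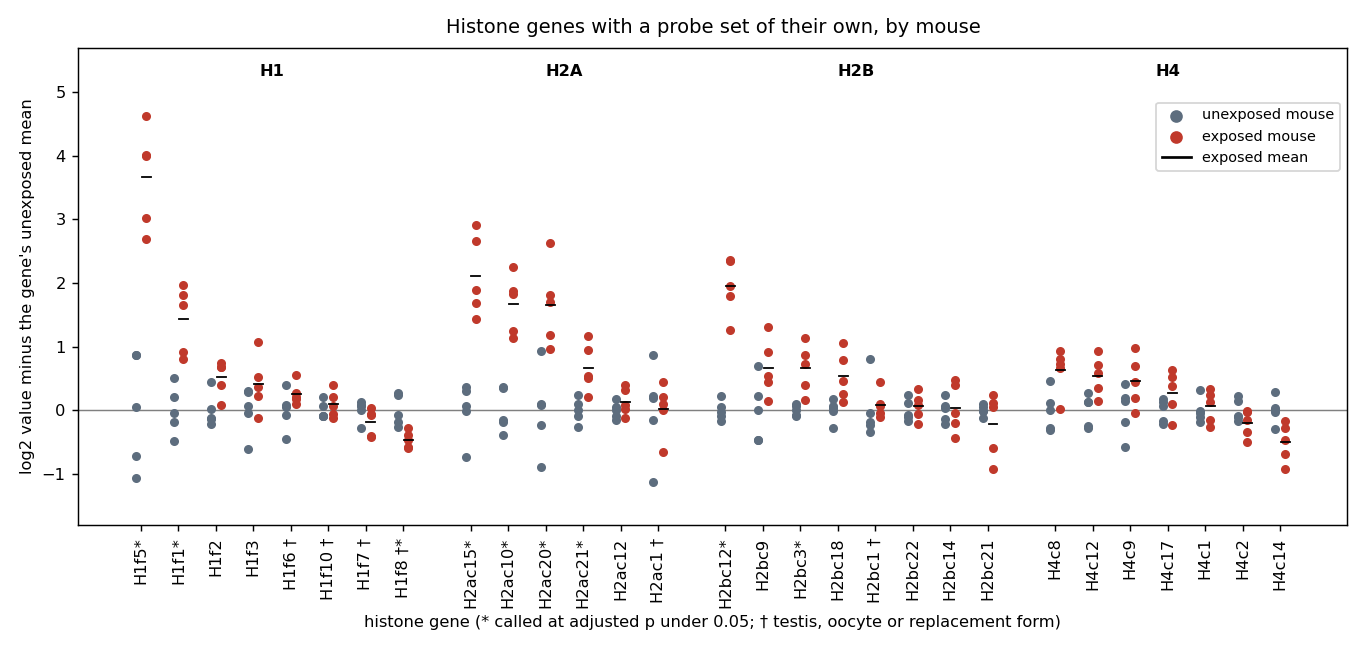
Values of the 29 histone genes with a probe set of their own, each point 1 mouse, as log2 value minus that gene's mean in unexposed mice (vertical axis), with genes grouped by histone type and ordered by difference (horizontal axis) and a black bar at the exposed mean of 5 mice. H1f5 stands farthest up, 3.67 log2 units above its unexposed mean, and the means of the 7 H4 genes lie between -0.51 and 0.63.

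Upstream sequence was available from RefSeq (GRCm38.p6) for 61 of the 66 genes, 250 bases before to 50 after the start. H2bc21 and H4c14 are among those not listed. Promoters are shown for the genes with the largest rise in each type and, for comparison, for H4c12, which did not pass: H1f5 at chr13:21780576-21780875 (minus strand), H2ac15 at chr13:21753863-21754162 (minus), H2ac10 at chr13:23533625-23533924 (plus), H2ac20 at chr3:96220831-96221130 (minus), H2bc12 at chr13:22035571-22035870 (plus) and H4c12 at chr13:21750504-21750803 (minus). Capitals mark 4 motifs on either strand: TATAAA, the TATA box; CCAAT, the CCAAT box; ATTTGCAT, the octamer known from H2B promoters; and AAACACA, known from H1 promoters. None of the 4 contains another.

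H1f5: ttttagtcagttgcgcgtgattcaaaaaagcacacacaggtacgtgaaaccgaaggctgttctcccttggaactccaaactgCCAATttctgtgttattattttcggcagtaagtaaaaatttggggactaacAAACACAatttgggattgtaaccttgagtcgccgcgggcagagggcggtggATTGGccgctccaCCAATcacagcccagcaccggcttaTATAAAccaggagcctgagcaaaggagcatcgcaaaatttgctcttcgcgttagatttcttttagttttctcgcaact

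H2ac15: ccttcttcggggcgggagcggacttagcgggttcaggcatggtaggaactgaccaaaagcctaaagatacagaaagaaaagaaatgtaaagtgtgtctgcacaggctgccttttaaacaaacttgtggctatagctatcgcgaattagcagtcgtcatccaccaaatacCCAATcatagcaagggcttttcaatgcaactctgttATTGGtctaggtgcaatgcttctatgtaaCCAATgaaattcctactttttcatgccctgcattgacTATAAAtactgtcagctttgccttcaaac

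H2ac10: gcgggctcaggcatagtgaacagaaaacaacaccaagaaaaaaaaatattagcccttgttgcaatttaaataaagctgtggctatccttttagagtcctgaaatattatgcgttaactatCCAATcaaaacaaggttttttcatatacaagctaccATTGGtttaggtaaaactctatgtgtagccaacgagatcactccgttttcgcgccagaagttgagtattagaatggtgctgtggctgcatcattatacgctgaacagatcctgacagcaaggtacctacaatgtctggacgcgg

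H2ac20: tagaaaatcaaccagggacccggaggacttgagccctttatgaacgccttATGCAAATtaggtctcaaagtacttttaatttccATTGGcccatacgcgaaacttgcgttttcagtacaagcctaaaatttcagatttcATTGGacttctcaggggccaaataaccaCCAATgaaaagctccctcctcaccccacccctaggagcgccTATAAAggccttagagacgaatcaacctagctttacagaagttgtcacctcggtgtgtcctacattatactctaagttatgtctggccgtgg

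H2bc12: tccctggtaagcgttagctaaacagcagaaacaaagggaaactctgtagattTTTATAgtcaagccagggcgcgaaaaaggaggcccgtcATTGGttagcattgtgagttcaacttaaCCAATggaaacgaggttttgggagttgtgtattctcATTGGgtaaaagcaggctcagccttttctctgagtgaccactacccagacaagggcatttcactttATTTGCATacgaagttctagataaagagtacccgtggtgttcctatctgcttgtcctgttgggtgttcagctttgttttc

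H4c12: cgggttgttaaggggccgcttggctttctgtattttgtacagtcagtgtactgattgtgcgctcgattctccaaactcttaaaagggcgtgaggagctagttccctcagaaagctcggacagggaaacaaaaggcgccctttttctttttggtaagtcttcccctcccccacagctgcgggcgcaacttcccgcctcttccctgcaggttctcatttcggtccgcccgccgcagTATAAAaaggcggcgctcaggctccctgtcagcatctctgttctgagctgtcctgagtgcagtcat

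The H1, H2A, H2B and H3 promoters were alike in carrying CCAAT. It was found in all 5, 16, 14 and 10 promoters of the replication-dependent H1, H2A, H2B and H3 genes, and in 3 of 11 H4 promoters, against 37.4% of all 32851 promoters of this length. H1f5, H2ac15, H2ac20 and H2bc12 each held 3 copies, H2ac10 held 2 and H4c12 none. TATAAA was in 57.1% of the 56 promoters of replication-dependent genes, against 13.6% of all promoters. The octamer was in 5 of 16 H2A and 6 of 14 H2B promoters and in none of the others (1.74% of all promoters), and AAACACA in 4 of 5 H1 promoters (7.18% of all promoters). H2A and H2B genes that lie back to back share part of these stretches, and a site in the shared part counts for both genes. The marked sites of H2bc12 are those of its neighbour H2ac12 read on the other strand. The H2A and H2B counts are thus not independent of each other. CCAAT was present in all 8 of the genes that rose and in 8 of the 13 promoters of measured replication-dependent genes that were not called higher, and TATAAA in 7 of the 8 and 7 of the 13. Among the 13, the promoters without CCAAT were those of H4c2, H4c8, H4c9, H4c12 and H4c17, all H4 genes. Within H1, H2A and H2B, CCAAT was present whether or not the gene was called, so the CCAAT counts follow histone type. The TATAAA counts do not, as TATAAA was in 8 of 11 H4 promoters. Among H1, H2A and H2B genes not called, H1f3, H2ac12 and H2bc22 carried TATAAA, and H1f2, H2bc9, H2bc14 and H2bc18 did not. A match describes these letters only.

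H1f5, which encodes the somatic linker histone H1.5, showed the largest rise among the histone genes. Its log2 values were 9.07, 10.39, 9.41, 10.38 and 11.01 in exposed mice 1 to 5 and 5.67, 7.25, 7.25, 6.43 and 5.32 in unexposed mice 1 to 5. The groups were far apart. The mean went from 6.38 ± 0.89 to 10.05 ± 0.79 (SD, n = 5 each), a 12.7-fold difference (log2 difference 3.67, SE 0.45, limma adjusted p = 0.000448), and H1f5 ranked 14 among all 22180 genes by its rise.

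H1f1, another somatic linker histone, was at 3.36, 4.52, 3.47, 4.36 and 4.21 in exposed mice 1 to 5 and at 3.06, 2.76, 2.36, 2.06 and 2.51 in unexposed mice 1 to 5. Every exposed value was the higher, with exposed mice 1 and 3 nearest to the unexposed range. The rise was 2.71-fold (log2 difference 1.44, SE 0.25, limma adjusted p = 0.00415). All of these values lie below the array medians of 5.1 to 5.18, and since no background level was available the size of the fold is uncertain. H1f2, also a somatic linker histone, was at 7.06 to 7.71 in exposed mice and 6.75 to 7.42 in unexposed mice and did not pass (0.52, adjusted p = 0.0619). H1f3 was not called either (0.41, SE 0.23, adjusted p = 0.299). H1f4 had a probe set only together with H2bc4, H2bc6 and H2bc8, in which the groups differed by -0.04 (95% interval -0.42 to 0.35).

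Among the H1 genes outside the replication-dependent group, H1f8, known from oocytes, fell from 4.62 ± 0.25 to 4.15 ± 0.13 (SD, n = 5 each; log2 difference -0.47, SE 0.13, limma adjusted p = 0.0357). All of its values, 4.02 to 4.89, lie below the array medians of 5.1 to 5.18, where the size of a change is uncertain. Its groups did not overlap, but of the 10 fits with 1 mouse left out it was called in only 3, those lacking exposed mouse 1, unexposed mouse 1 or unexposed mouse 2 (adjusted p over all 10 fits 0.0292 to 0.0871). H1f6, H1f7 and H1f10 differed by 0.26, -0.19 and 0.10 and did not pass (adjusted p 0.314 to 0.686), and a probe set shared by H1f10 and Gm5577 differed by 0.12.

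Of the 6 H2A genes measured, 4 rose and none fell. H2ac15 (formerly Hist1h2ak) was at 8.28, 9.25, 8.02, 8.49 and 9.50 in exposed mice 1 to 5 and at 6.66, 6.58, 6.96, 6.90 and 5.86 in unexposed mice 1 to 5. The groups were clearly separated, and the rise was 4.33-fold (log2 difference 2.11, SE 0.30, limma adjusted p = 0.00101). H2ac10 (formerly Hist1h2af) was at 7.99, 8.68, 8.10, 8.72 and 9.10 in exposed and at 6.69, 7.20, 7.22, 6.46 and 6.66 in unexposed mice. Here too every exposed mouse was the higher, with a 3.18-fold rise (log2 difference 1.67, SE 0.23, limma adjusted p = 0.000834).

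H2ac20 (formerly Hist2h2ac), which lies in the smaller cluster on chromosome 3, was at 6.15, 6.99, 6.37, 6.89 and 7.81 in exposed and at 4.29, 6.11, 5.29, 5.27 and 4.96 in unexposed mice. The lowest exposed mouse, mouse 1, was only just above unexposed mouse 2. The rise was 3.16-fold (log2 difference 1.66, SE 0.35, limma adjusted p = 0.0113). Its neighbour H2ac21 (formerly Hist2h2ab) rose 1.59-fold (log2 difference 0.67, SE 0.17, limma adjusted p = 0.0308). Its exposed values ran from 4.97 to 5.94 and its unexposed values from 4.51 to 5.01, so that the groups overlapped. H2ac21 was the only measured member with 2 probe sets of its own, which were averaged, and they gave log2 differences of 0.97 and 0.37. H2ac12 stayed between 1.56 and 2.10 in all 10 mice (log2 difference 0.14, 95% interval -0.12 to 0.39), and the testis gene H2ac1 differed by 0.02 (95% interval -0.68 to 0.72).

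Of the 8 H2B genes measured, 2 rose and none fell. H2bc12 (formerly Hist1h2bk) was at 4.94, 6.02, 5.47, 5.63 and 6.04 in exposed mice 1 to 5 and at 3.59, 3.90, 3.51, 3.72 and 3.64 in unexposed mice 1 to 5. The unexposed mice lay close together and all exposed mice were far above them. The rise was 3.87-fold (log2 difference 1.95, SE 0.19), with the smallest adjusted p of the histone genes (limma, 0.000128). Its unexposed values lie below the array medians of 5.1 to 5.18, so that the size of the fold is uncertain. H2bc3 (formerly Hist1h2bb) rose 1.58-fold, from an unexposed range of 5.84 to 6.02 to an exposed range of 6.09 to 7.07 (log2 difference 0.66, SE 0.16, limma adjusted p = 0.0249).

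H2bc9 and H2bc18 differed by 0.67 and 0.54 and did not pass (adjusted p = 0.134 and 0.0658), and H2bc14 and H2bc22 differed by 0.04 and 0.06 (adjusted p = 0.923 and 0.820). H2bc9, H2bc14 and H2bc22 were dim, at most 3.95, 3.61 and 2.86 in any mouse, below the array medians of 5.1 to 5.18. Whether their probe sets can respond was not tested. H2bc21, formerly Hist2h2be, is known in mice as an H2B variant of non-dividing olfactory neurons, but was counted here among the 23 replication-dependent genes. It was at 5.16, 5.29, 4.13, 4.45 and 5.10 in exposed and at 4.92 to 5.14 in unexposed mice, where exposed mice 3 and 4 stood low (log2 difference -0.22, 95% interval -0.66 to 0.23, adjusted p = 0.587). The testis gene H2bc1 differed by 0.09 (adjusted p = 0.851).

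None of the 7 H4 genes measured was called in either direction by limma, and 3 of them had an unadjusted p under 0.05. The pair with the smallest p were H4c8 (formerly Hist1h4h), at 5.69 to 6.6 in exposed mice and 5.35 to 6.13 in unexposed mice (log2 difference 0.63, SE 0.19, adjusted p = 0.0566), and H4c12 (formerly Hist1h4k), at 10.09 to 10.87 and 9.66 to 10.22 (0.54, SE 0.16, adjusted p = 0.0574). In both, 4 of 5 exposed mice were above every unexposed mouse. H4c14, the H4 gene of the chromosome 3 cluster, pointed the other way (-0.51, SE 0.15, adjusted p = 0.0601). Its exposed values ran from 4.40 to 5.16 and its unexposed values from 5.04 to 5.61. H4c9, H4c17, H4c1 and H4c2 differed by 0.46, 0.28, 0.06 and -0.20 (adjusted p 0.234 to 0.845). H4c17, H4c1 and H4c2 were dim, at most 2.94, 3.98 and 2.51 in any mouse, below the array medians of 5.1 to 5.18. Whether their probe sets can respond was not tested. H4c8 and H4c12 passed under the trended and robust variance model and under array weights, as did H1f2 and H2bc18, which also missed the threshold narrowly. H4c14 passed as lower under array weights (adjusted p = 0.0370) and without dim genes (adjusted p = 0.0385).

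The probe sets that name several histone genes extend this view to the genes without a probe set of their own, although no single gene can be named from them. There were 38, of which 3 repeated the values of another, leaving 35 that were tested among all 41345 probe sets. Of these, 14 were higher, 1 was lower and 20 did not pass, against 2.9% and 2.31% of all probe sets called higher and lower (5.2% in either direction). In 13 of the 35 every exposed mouse was above every unexposed mouse (4.23% of all probe sets). Of the 35, 11 passed with a rise of at least 2-fold (1.21% of all probe sets) and 30 had a difference above 0 (49.3% of all probe sets). Probe sets of 1 group often differed widely among themselves.

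In the H2A group of 10 genes (H2ac4, H2ac6, H2ac7, H2ac8, H2ac11, H2ac12, H2ac13, H2ac22, H2ac23 and H2ac24), 4 of 7 probe sets rose, by 1.09 to 2.48 log2 units, and the other 3 differed by 0.23 to 0.87. The smallest of the 4 rises was lost in 5 of the 10 fits with 1 mouse left out, those lacking exposed mouse 4 or 5 or unexposed mouse 2, 3 or 5 (limma adjusted p up to 0.0621). The probe set that adds H2ac10 and H2ac15 to these genes rose by 1.14 (limma adjusted p = 0.00115). The largest was at 5.47 to 7.25 in exposed mice and 3.19 to 4.46 in unexposed mice, a 5.56-fold difference (SE 0.35, limma adjusted p = 0.00234). Its unexposed values lie below the array medians of 5.1 to 5.18, as do all values of the smallest of the 4 rises. The size of these folds is uncertain. In contrast, the probe set for H2ac18, H2ac19 and H2ac20 was at 9.84 to 10.33 in exposed mice and 9.98 to 10.20 in unexposed mice (log2 difference -0.09, 95% interval -0.33 to 0.16), although the probe set of H2ac20 alone rose.

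In the H2B series, both probe sets of the widest group, 11 members and H4bc24, rose by 1.80 and 1.66, and 2 of 3 for H2bc7, H2bc11, H2bc13 and H2bc15 rose by 1.80 and 1.35 (adjusted p 0.000228 to 0.0127 over these 4). The brighter of the latter was at 11.12 to 11.97 in exposed mice and 9.60 to 9.95 in unexposed mice, a 3.48-fold rise with no overlap. Both probe sets for H2bc4, H2bc6 and H2bc8 showed little difference, 0.15 (95% interval -0.30 to 0.60) and 0.01 (95% interval -0.32 to 0.35), with no exposed mouse of the latter above 10.25 or unexposed mouse above 10.16.

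H3 was read by 12 shared probe sets in 2 groups, of which 4 rose and none fell. The first group, H3c1, H3c8, H3c10 and H3c11, holds the mouse genes for the form H3.1, and the second, with 8 genes, those for the form H3.2. In the first, 2 of 4 rose, by 1.20 (6.10 to 7.34 in exposed, 4.74 to 5.84 in unexposed mice, limma adjusted p = 0.0319) and 0.94 (limma adjusted p = 0.0148). In the second, 2 of 8 rose, by 1.08 (9.02 to 9.52 in exposed, 8.02 to 8.34 in unexposed mice, limma adjusted p = 0.00077) and 0.94 (limma adjusted p = 0.0268). The groups did not overlap in these 4. Both rises of 0.94 were in dim probe sets, at 1.5 to 3.23 and 1.68 to 3.38 over all mice, below the array medians, where the size of the fold is uncertain. The first of the H3.1 set and the last of the H3.2 set each lost the call in 7 of the 10 fits with 1 mouse left out (adjusted p up to 0.0804 and 0.0715). Both held when exposed mouse 1 or 3 was left out, the former also when unexposed mouse 3 was and the latter when unexposed mouse 2 was. The other 8 H3 probe sets differed by -0.16 to 0.92.

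H4 was again mixed. The probe set for H4c1, H4c2, H4c8, H4c9, H4c17 and H4c18 rose by 0.80, from 5.88 ± 0.35 to 6.68 ± 0.28 (SD, n = 5 each; limma adjusted p = 0.0360). Of the 4 probe sets that name 13 genes, all 12 H4c members and H4f16, 1 fell, from 5.19 ± 0.65 to 3.80 ± 0.47 (log2 difference -1.39, SE 0.32, limma adjusted p = 0.0314), and the other 3 differed by 0.18 to 0.93. The rise was lost in 7 and the fall in 8 of the 10 fits with 1 mouse left out. The rise held only when exposed mice 1 or 3 or unexposed mouse 2 were left out, and the fall only when exposed mouse 1 or unexposed mouse 3 was (adjusted p up to 0.0866 and 0.0786).

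**Figure D2:**
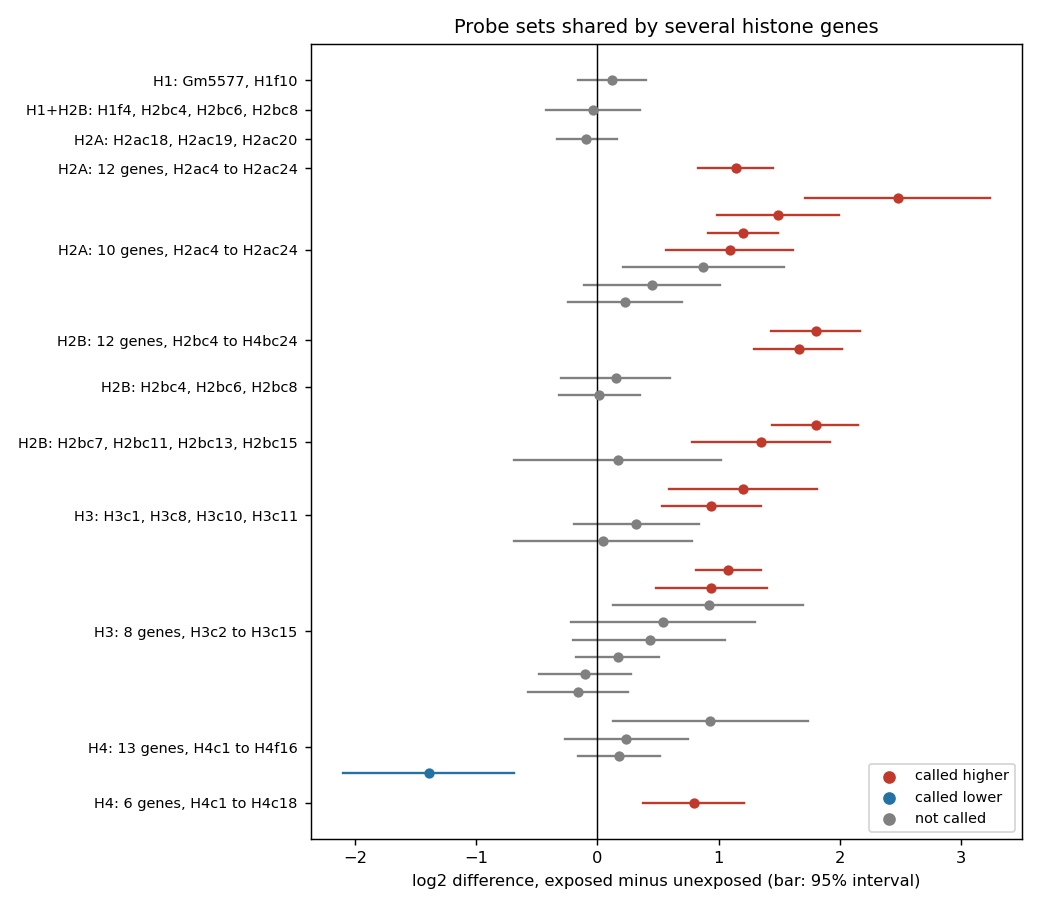
Difference between exposed and unexposed mice (horizontal axis, log2 units, with 95% intervals as bars) for the 35 distinct probe sets that name several histone genes, in rows by histone type and by the genes named (vertical axis). Those called higher, in red, are 14 in number and lie in the H2A, H2B, H3 and H4 groups, and the 1 called lower, in blue, names 13 H4 genes.

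H2A and H2B genes often lie back to back, with both starts close together and the DNA between them in common. H2bc12 and H2ac12 form such a pair, with 178 bases between their starts. H2bc12 rose 3.87-fold while H2ac12 differed by 0.14. The difference between the log2 values of H2ac12 and H2bc12 in the same mouse ran from -4.31 to -3.16 in exposed mice and from -2.13 to -1.71 in unexposed mice, a shift of -1.81 that lies almost wholly in H2bc12. The values of H2ac12 were among the lowest of the array, at most 2.10 in any mouse, and whether its probe set can respond was not tested. H2ac12 is also named in the H2A group of 10 genes, where 4 of 7 shared probe sets rose. Its part in those cannot be read, so a rise of H2ac12 itself is neither shown nor excluded.

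H2ac20 and H2bc21 are neighbours in the chromosome 3 cluster and were set against each other after their values were seen, so that no test is given. H2ac20 minus H2bc21 ran from 0.99 to 2.71 in exposed mice and from -0.74 to 1.19 in unexposed mice, with exposed mouse 1 below unexposed mouse 2 and the rest apart. The shift was 1.87 and 1.65 to 2.14 with 1 mouse left out. The testis pair H2bc1 and H2ac1, the third pair with values for both genes, shifted by 0.07.

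**Figure D3:**
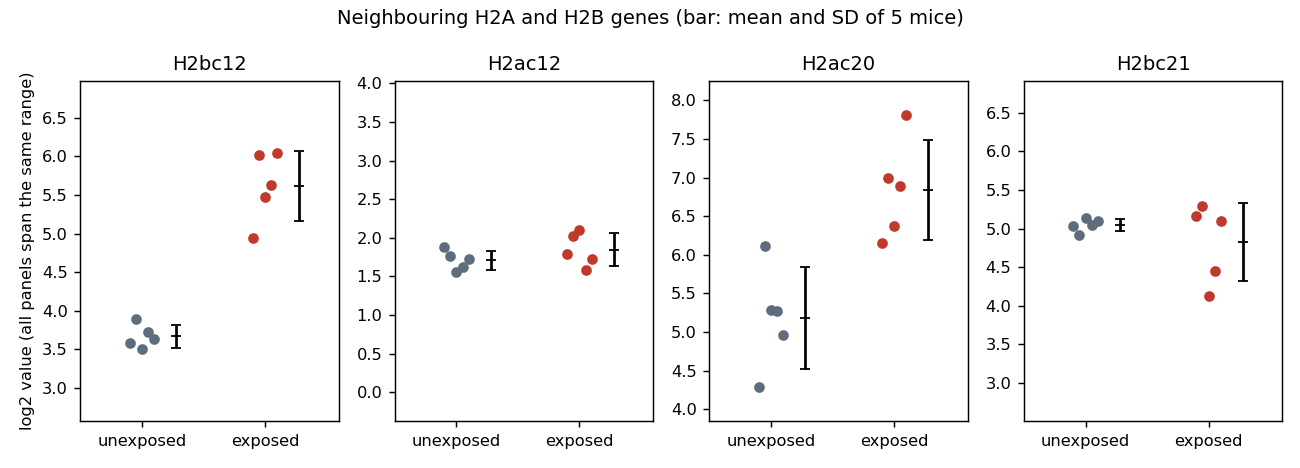
Log2 values (vertical axis, all panels spanning the same range) of the neighbouring genes H2bc12 and H2ac12 and of H2ac20 and H2bc21 in unexposed and exposed mice (horizontal axis), each point 1 mouse, with mean and SD of 5 mice beside the points. H2bc12 and H2ac20 are higher in all 5 exposed mice, and the ranges of H2ac12 and H2bc21 overlap between groups.

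The height of the histone genes differed among the exposed mice. The mean over the 23 replication-dependent genes, taken relative to the unexposed mean, was 0.57, 0.91, 0.49, 0.77 and 1.01 in exposed mice 1 to 5 and -0.14, 0.20, 0.04, -0.01 and -0.09 in unexposed mice 1 to 5. Exposed mice 1 and 3 were lowest and mouse 5 was highest. Exposed mouse 5 held the highest value for 5 of the 8 genes that rose and exposed mouse 2 for the other 3, while exposed mouse 1 held the lowest for 5. By type, the exposed means ran from 1.01 to 1.83 for H1, 0.88 to 1.75 for H2A, 0.30 to 0.82 for H2B and -0.02 to 0.42 for H4. The 6 testis, oocyte and replacement genes averaged -0.10 to 0.02 in exposed mice and -0.14 to 0.35 in unexposed mice.

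Genes of DNA synthesis showed a like order of mice. The list mean over 26 measured genes was 0.62, 1.08, 0.74, 1.01 and 1.28 above the unexposed mean in exposed mice 1 to 5, again with mouse 5 highest and mice 1 and 3 lowest. Of these 26 genes 22 rose and none fell, against 5.85% and 4.97% of all genes called higher and lower, with a median log2 difference of 0.90. Rrm2, the small subunit of ribonucleotide reductase, rose 4.75-fold (2.25, limma adjusted p = 4.96e-05), the helicase subunit Mcm5 2.80-fold (1.48, limma adjusted p = 0.000871) and Mcm6 2.78-fold (1.47, limma adjusted p = 0.00129).

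**Figure D4:**
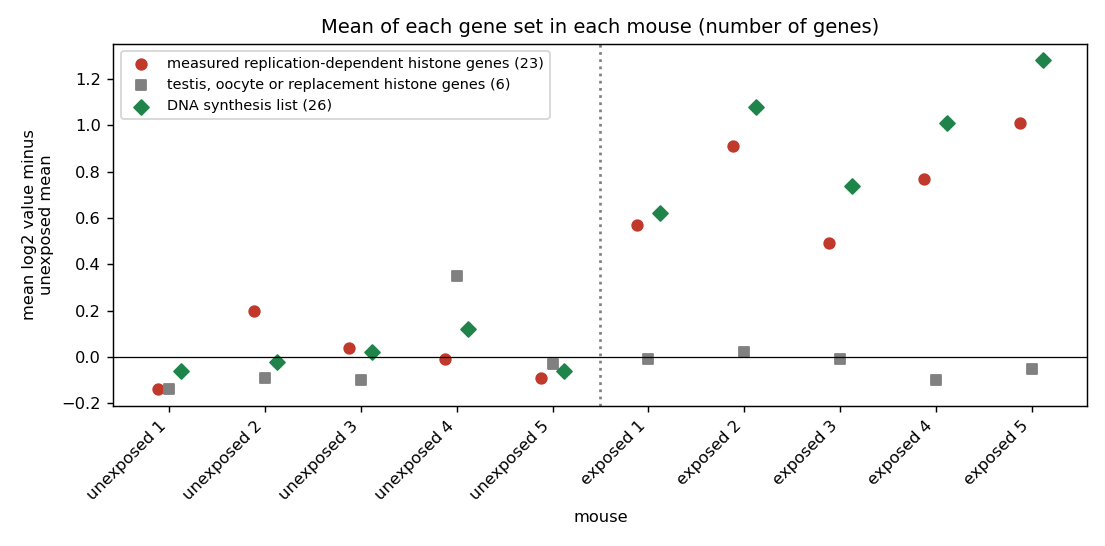
Mean log2 value relative to the unexposed mean (vertical axis) in each of the 10 mice (horizontal axis) for 23 replication-dependent histone genes, the 6 testis, oocyte or replacement histone genes and 26 DNA synthesis genes, each point the mean over the genes of a set. The histone and DNA synthesis means are higher in every exposed mouse, 0.49 to 1.01 and 0.62 to 1.28, and the grey squares lie between -0.14 and 0.35.

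Genes that place histones on DNA rose in part. Of 23 measured chaperone and deposition genes 8 rose and none fell, against 5.85% and 4.97% of all genes called higher and lower, with a median of 0.09. Asf1b, the H3-H4 chaperone of dividing cells, rose 2.07-fold (log2 difference 1.05, limma adjusted p = 0.000822). No exposed mouse was below 6.26 and no unexposed mouse above 5.59. Chaf1b, a subunit of the assembly factor that works at replication forks, rose 2.06-fold (1.04, limma adjusted p = 0.000681), and Mms22l, which acts at stalled forks, 2.02-fold (1.01, limma adjusted p = 0.00935). The partner gene Asf1a differed by 0.09 (adjusted p = 0.688). Of the genes that place H3 outside replication, Daxx rose (0.47, limma adjusted p = 0.00407), while Hira, Cabin1, Ubn1 and Atrx, the partner of Daxx, did not pass (-0.03, -0.03, 0.01 and -0.22).

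Of 17 measured genes for the transcription and processing of histone mRNA, 1 rose and none fell, with a median of 0.22. This share is close to the 5.85% of all genes called higher. The gene was Eri1, a nuclease that trims the stem-loop (0.44, SE 0.10, limma adjusted p = 0.0189). Slbp, the stem-loop binding protein, was at 7.09, 7.48, 6.67, 7.24 and 7.51 in exposed and at 6.69 to 6.95 in unexposed mice, with exposed mouse 3 the lowest of all 10 (0.38, SE 0.15, adjusted p = 0.145). Of the 10 fits with 1 mouse left out, Slbp passed only in the one without that mouse (limma adjusted p 0.0157 to 0.282 over all 10). Npat, the activator of histone gene transcription, differed by 0.28 (adjusted p = 0.226).

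A list drawn up for histone variants made outside replication had 11 measured genes and shares H1f7, H1f8 and H1f10 with the genes above. It also holds H2ax and H4f16, which is named with the H4c genes on shared probe sets, and its title is loose for both. Of the 11, 2 rose and 1, H1f8, fell, against 5.85% and 4.97% of all genes called higher and lower. H2ax, whose mRNA is known in both stem-loop and polyadenylated forms, rose 3.32-fold, from 7.59 ± 0.30 to 9.31 ± 0.33 (SD, n = 5 each; log2 difference 1.73, limma adjusted p = 0.000163). Cenpa, the H3 variant of centromeres, rose 2.60-fold (1.38, limma adjusted p = 0.000367). No exposed mouse was below 6.18 and no unexposed mouse above 5.46. H2az1 differed by 0.40 (SE 0.22, adjusted p = 0.311).

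Markers of several cell types moved with exposure beside the histone genes, and their part in these results was not tested. The shares of all genes called higher and lower, 5.85% and 4.97%, apply to these counts too. Of 8 macrophage markers 6 rose (mean log2 level 7.49 to 8.38 in exposed, 6.58 to 7.16 in unexposed mice), of 10 basal epithelial markers 5 rose (7.96 to 8.79 and 7.39 to 7.68), and of 8 fibroblast markers 3 rose (10.16 to 10.69 and 9.90 to 10.28). Of 9 ciliated markers 5 fell (4.62 to 7.96 and 8.11 to 8.68), of 8 secretory markers 2 fell (5.38 to 10.83 and 11.13 to 11.34), and of 8 cartilage markers 3 fell (5.71 to 7.99 and 7.36 to 8.59). Of 9 lymphocyte markers none rose and 1 fell, of 6 endothelial markers 1 rose, and none of 6 smooth muscle, 6 pan-epithelial or 5 germ cell markers was called by limma. The labelled mesenchyme expressed fibroblast genes, and epithelial markers were present in both groups. Among exposed mice, mouse 1 held the highest and mouse 3 the lowest ciliated and secretory marker means. Without both, 10 histone genes were called higher, all 8 of the original ones among them. Mice 1 and 3 also had the lowest histone means of the exposed mice, 0.57 and 0.49. Leaving them out raises the mean histone difference by itself, so this fit is no check on cell content.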

How the data were processed

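One array per mouse was used for 5 exposed and 5 unexposed mice. The authors' deposited values are log2 intensities per probe set, made by RMA (Partek 6.6, per the submitters' processing notes). For RMA settings, filters and build the sources used here give nothing. RNA was labelled with the WT Plus kit, per the labels' protocols. Scanner files were not used here, so no gene could be called above background. A gene's value was the mean of its probe sets with a single symbol, by the platform annotation (23521 of 41345 probe sets had 1 symbol, 1814 several, 16010 were unlisted). All 66 members were found in the RefSeq table by gene identifier.

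The comparison used limma 3.58.1 under R 4.3.3 (lmFit, eBayes, two-sided, no covariate), over 22180 genes, or over 41345 probe sets for shared ones, with Benjamini-Hochberg adjustment, called at 0.05. The code was tested on simulated data. Neighbouring genes were described by the difference of their log2 values in each mouse, and figures drawn with matplotlib 3.10.9 in Python 3.11.15. Members, lists and markers were chosen with earlier results of these data known. Named were, per type, called members with the largest changes or, with none called, those with the smallest p, members with the smallest differences and testis or replacement forms; per list, up to 3 called in each direction; and Slbp, Npat, H2az1 and Cenpa. Other members were named to account for all, and Asf1a, Daxx, Atrx, Hira, Cabin1 and Ubn1 after their values were seen.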

Additional observations from a re-analysis of the deposited data

Results flagged for a closer look

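In 58 groups of 5 values (29 histone genes in both groups of mice), 1 mouse lay apart from the other 4 by Dixon's test at the 95% level, which chance alone gives for about 1 in 20 groups. It was unexposed mouse 4 for the testis gene H2bc1, at a log2 value of 2.34, with 1.18 to 1.48 in the other unexposed mice.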

How the results depend on the processing

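The 8 histone genes called higher were kept under quantile normalization (8 called), centring on array medians (9), the brightest probe set (8), trended and robust variance (12), array weights (12), a block for mouse number (9) and without exposed mice 1 and 3 (10). Exposed mice 1 and 3 had the lowest histone means of the exposed mice. Without dim genes 10 were called, and H1f1 and H2bc12 were then not tested. At an adjusted p under 0.01, 5 remained, and at 2-fold 6. By single probe sets, 23 of 68 were higher, against 2.9% of all probe sets. Both of these numbers include probe sets that repeat the values of another, 3 in all, some of them called higher. The count of histone genes called lower was 1, 2 with array weights, and 0 without exposed mice 1 and 3, at an adjusted p under 0.01 and at 2-fold. With 1 mouse left out, 6 to 10 histone genes were higher and 0 to 2 lower. Shared probe sets called higher were 14, 8 at an adjusted p under 0.01 and 10 to 15 with 1 mouse left out, and those called lower 1, 0 at an adjusted p under 0.01, without dim probe sets or with the block, and 0 to 1 with 1 mouse left out. The alternative fits of the shared probe sets and the neighbour pairs were chosen after seeing the data.

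Of all genes, 1298 were higher (944 to 1432 with 1 mouse left out, 619 at an adjusted p under 0.01, 411 at 2-fold) and 1102 lower (723 to 1407, 725 without unexposed mouse 1 and 723 without unexposed mouse 4, 435 at an adjusted p under 0.01, 349 at 2-fold). With 1 mouse left out, the lists gave 20 to 24 DNA synthesis genes higher, 7 to 8 chaperone genes, 1 to 3 mRNA processing genes (3 without exposed mouse 3) and, for the variants, 2 higher and 0 to 1 lower. With the replicate block, 18 DNA synthesis genes were higher and 0 variant genes lower.

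Same-numbered mice did not deviate together (r of deviations -0.049 to 0.125, and 2 of 10 mice correlated best with their own number), so the numbers are not taken as pairs. With the block, H1f2 (adjusted p = 0.0401) and H4c14 (adjusted p = 0.0498) passed, and H1f8 did not (adjusted p = 0.0853). The cause of these changes was not tested.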
